A study of Mus musculus with 696 samples.

Results

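Genes of glycolysis and of the response to low oxygen (hypoxia) were followed through the healing of tail skin wounds in mice. A fixed list of 36 symbols, chosen with earlier results of these data known, defined them, and 35 had a row among the 15652 genes of the deposited table. All 35 passed the filter on low counts, and Aldoa was not analysed here. The members comprise 4 transporters of glucose and lactate, 15 measured enzymes of glycolysis and its regulation, 3 genes of oxygen sensing, 5 mitochondrial targets of the hypoxia response and 8 other targets.

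The study asked how cells descended from Lrig1 stem cells, which sit in the upper hair follicle, respond when healed skin is wounded again. All animals were young adult females of mixed CBA and C57BL/6 background. All carried Lrig1-EGFP-ires-CreERT2 and Rosa26-fl/STOP/fl-tdTomato and were treated once with hydroxytamoxifen on the tail, so the Lrig1 gene drove the recombinase and tdTomato stayed on in every descendant of a labelled cell. Epidermal cells positive for tdTomato were sorted singly into plates out of skin spanning the wound bed and more distant hair follicles, and their whole transcripts were read with Smart-seq2, which has no molecular identifiers.

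Unwounded skin (0w) gave 179 cells. Skin 1 week after a full-thickness wound (1w pw1) gave 168 cells, skin 8 weeks after that wound (8w pw1) 172 cells, and skin 1 week after a second wound of the healed skin (1w pw2, labelled week 9) 177 cells. Each time point was 2 plates, 8 in all, with 79 to 91 cells a plate. The methods name 2 independent experiments, each on 4 biological replicates. The plates carry replicate numbers, but the labels tie no plate to an experiment or a mouse, so p-values here measure the spread between plates, which may be technical. The titles also carry a letter of unstated meaning that goes with the time point, such as RepC at 0w, RepB at 8w pw1 and RepF at 1w pw2. Whatever the letter stands for cannot be told apart from the time point.

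Glycolysis splits glucose into pyruvate and yields ATP without oxygen. Glucose enters through facilitative transporters such as Slc2a1, and pyruvate turned to lactate by lactate dehydrogenase leaves through monocarboxylate transporters. The transcription factor subunit Hif1a is hydroxylated by prolyl hydroxylases of the Egln family while oxygen is present and is then degraded. When oxygen is scarce it persists, binds DNA with a partner at short sites, among them those with the core ACGTG, and drives glucose transporters, most glycolytic enzymes and genes that restrain mitochondria. Epidermis has no blood vessels of its own, and a healing wound is known as a site of low oxygen and high glucose use.

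Each plate was reduced to the sum over its cells, and levels are given as CPM, counts relative to a fixed total of the plate's counts, with plates scaled by the trimmed mean of M values. Plate totals ran from 12293182 to 19760820 estimated counts, and median counts per cell from 64980 to 256588. Such sums cannot tell fewer cells of a type from less RNA per cell, and they weigh deep cells most, the deepest holding 3.64 to 12.1% of a plate. The median share of mitochondrial counts was 22.7 and 30.7% on the 0w plates and 13 to 23.9% on the other 6. Without the mitochondrial genes the median log2 fold change of the members at 1w pw1 against 0w was 1.18, and with only cells up to 20% mitochondrial counts and of 2000 genes or more it was 1.59, against 1.18 in the fit with all cells and genes. That stricter filter kept only 37 of 88 and 9 of 91 cells on the 0w plates, and 31 to 58 cells on each of the other 6. The keratinocyte label held: all 6 basal markers had counts on every plate, summing to 1604 to 4626 CPM. The markers of other lineages were low, at most 55.4 CPM for immune cells, 29.5 for fibroblasts, 11.8 for melanocytes, 42.3 for pericytes and muscle and 3.17 for erythrocytes. Those of pericytes and muscle were highest at 1w pw1 (16.4 and 22.6 CPM) and 1w pw2 (11.5 and 42.3 CPM), against 0.241 to 2.9 CPM on the other 4 plates. Pecam1, an endothelial gene, stood at 94.5 to 1812 CPM and was counted in 687 of 696 cells, while the endothelial receptors Kdr and Tie1 reached only 0.256 and 0.325 CPM. The endothelial sum, nearly all Pecam1, was 160 and 94.7 CPM at 1w pw1 and 340 to 1813 CPM on the other 6, and the part of these markers in the results was not tested. Genes of the stress of dissociation summed to 1223 and 1500 CPM at 0w and to 483 to 1125 CPM on the other plates.

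The promoters of 5 members named in the results are shown. They are the 250 bases before the RefSeq start site in the GRCm38.p6 assembly, written 5′ to 3′ on the strand of the gene, with each ACGTG, or CACGT where the other strand carries it, in capitals (CACGTG is a match on both strands).
Fam162a: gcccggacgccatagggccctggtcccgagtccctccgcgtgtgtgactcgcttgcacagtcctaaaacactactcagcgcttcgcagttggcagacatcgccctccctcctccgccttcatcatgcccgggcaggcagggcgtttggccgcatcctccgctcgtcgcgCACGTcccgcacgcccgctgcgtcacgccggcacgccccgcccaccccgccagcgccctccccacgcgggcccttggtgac
Egln3: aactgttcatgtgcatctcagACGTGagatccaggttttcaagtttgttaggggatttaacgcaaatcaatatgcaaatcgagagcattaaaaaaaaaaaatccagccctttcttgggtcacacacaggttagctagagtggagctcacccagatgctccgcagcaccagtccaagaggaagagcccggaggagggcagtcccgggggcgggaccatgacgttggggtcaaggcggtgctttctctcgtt
Ldha: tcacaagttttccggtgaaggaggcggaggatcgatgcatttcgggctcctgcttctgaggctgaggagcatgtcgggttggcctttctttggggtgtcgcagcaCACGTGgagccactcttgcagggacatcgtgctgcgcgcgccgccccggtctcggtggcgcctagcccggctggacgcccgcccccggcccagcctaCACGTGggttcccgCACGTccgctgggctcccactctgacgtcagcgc
Pgk1: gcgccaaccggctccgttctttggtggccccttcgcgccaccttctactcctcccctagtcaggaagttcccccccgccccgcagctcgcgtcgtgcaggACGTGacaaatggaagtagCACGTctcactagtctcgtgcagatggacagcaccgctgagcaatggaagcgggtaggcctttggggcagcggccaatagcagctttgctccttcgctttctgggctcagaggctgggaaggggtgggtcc
Slc2a1: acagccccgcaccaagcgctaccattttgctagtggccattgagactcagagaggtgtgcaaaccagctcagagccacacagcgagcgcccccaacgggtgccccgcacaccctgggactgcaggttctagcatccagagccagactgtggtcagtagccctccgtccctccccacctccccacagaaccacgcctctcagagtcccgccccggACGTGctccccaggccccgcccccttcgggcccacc
The Fam162a window is chr16:36071562-36071811 on the minus strand and holds 1 match. The Egln3 window, chr12:54203875-54204124 on the minus strand, also holds 1 match, far from the start. Ldha (chr7:46845554-46845803, plus strand) holds 3 places, and Pgk1 (chrX:106186850-106187099, plus strand) holds 2. Slc2a1 (chr4:119108495-119108744, plus strand) holds 1, close to the start. Over windows of 300 bases, from 250 before to 50 after a start, ACGTG was found on either strand in 28 of the 46 promoters of the members (60.9%) and in 6447 of all 32851 promoters (19.6%). Of the 32 members with a promoter in the table, 25 (78.1%) had the letters in at least 1, against 21.8% of 27025 symbols. The members' promoters were also richer in G and C, with a median of 64% against 52.7%. Eno1, Tpi1, Gpi1, Pdk1, Pfkl, Pfkp and Adm had no match in these windows. Ndrg1, Bnip3l and Slc2a3 were not in the table. Only ACGTG was searched, so a promoter without a match may hold another form of the site. A match is a string of letters and not a measured site.

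Per kilobase of transcript, the most abundant members of unwounded skin were Gapdh, Ldha and Fam162a, at mean levels of 168, 125 and 93.1 CPM per kilobase. Gapdh and Ldha encode the dehydrogenases in the middle and at the end of the pathway, and Fam162a a small mitochondrial protein induced by hypoxia. Fam162a ranked highest at 1w pw1, at 1003 CPM per kilobase against 461 for Gapdh and 456 for Ldha. At 1w pw2 Gapdh led again at 592, with Ldha at 293 and Fam162a at 249. Slc2a3, Pfkfb3 and Hk2 were among the lowest at every time point, from 0.142 to 1.97 CPM per kilobase.

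The contrast of 1w pw1 with 0w shows the members during the first healing. Of the 35 tested, 29 were higher and 6 lower, and both 1w pw1 plates lay above both 0w plates for 24 of them, where 23% of all 13853 genes did so. The median log2 fold change of the members was 1.18 and that of all genes -0.04. At an unadjusted p below 0.05 there were 13 higher members, against 5.45% of all genes, and 1 lower. A gene was called at an adjusted p below 0.05 and a fold above 2. By that rule edgeR called 1 member, Fam162a, where it called 0.527% of all genes. DESeq2 called 5 members, Fam162a, Egln3, Eno1, Slc16a3 and Higd1a, and 5.22% of all genes. With the replicate number as a block edgeR called 5, Fam162a, Egln3 (adjusted p 0.021), Eno1 (0.0388), Ldha (0.0319) and Slc16a3 (0.0223), and 1.7% of all genes.

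Fam162a (chromosome 16, 36043761 to 36071594) stood at 44.2 and 89.5 CPM on the 0w plates and at 683 and 757 CPM on the 1w pw1 plates. It was at 82.1 and 72 CPM at 8w pw1 and at 192 and 165 CPM at 1w pw2. The 1w pw1 plates were thus far above the other 6, and the 1w pw2 plates lay between. Fam162a rose 10.8-fold at 1w pw1 (log2 3.43, SE 0.51, adjusted p 0.0215). The call was lost without 0w replicate 1 (log2 2.97, adjusted p 0.151), 0w replicate 2 (4.01, 0.0887), 1w pw1 replicate 1 (3.48, 0.107) or 1w pw1 replicate 2 (3.34, 0.111). It was also lost with the stricter filter on cells (4.37, 0.0673) and with limma on the mean log2 CPM of cells (1.67, 0.0895). Of the members limma called only Egln3 (1.87, SE 0.53, adjusted p 0.0484), and it called 3.96% of all genes.

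Among the enzymes, 13 of 15 were higher at 1w pw1 and 6 had an unadjusted p below 0.05, all in the lower part of the pathway, where 3-carbon sugars become pyruvate and lactate. Eno1, which makes phosphoenolpyruvate, stood at 62.4 and 36.7 CPM at 0w and at 305 and 198 CPM at 1w pw1 (log2 2.34, SE 0.50, adjusted p 0.0826). Pgk1, the enzyme of the first ATP-yielding step, stood at 62.9 and 107 CPM against 374 and 363 CPM (log2 2.12, SE 0.70, adjusted p 0.242). Ldha, which turns pyruvate into lactate, was at 149 and 292 CPM against 671 and 940 CPM (1.87, SE 0.61, adjusted p 0.235). The wounded plates did not overlap the unwounded ones for any of these 3. Pgam1, the mutase between them, was at 44.5 and 71.7 CPM against 208 and 154 CPM (1.64, SE 0.56, adjusted p 0.263). Pkm, the pyruvate kinase, was at 92.6 and 58.7 CPM against 258 and 175 CPM (1.52, SE 0.48, adjusted p 0.222). Gapdh was at 270 and 206 CPM against 793 and 516 CPM (1.46, SE 0.45, adjusted p 0.211). The 9 enzymes that missed this threshold, among them the hexokinases and phosphofructokinases of the upper pathway, had log2 fold changes from -0.19 to 1.64. Eno1 and Eno1b are near-identical copies, and several of these enzymes have processed pseudogenes, so the division of reads between copies is uncertain.

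Slc16a3, the lactate exporter of glycolytic cells, had 0 counts on both 0w plates and 7.71 and 1.7 CPM at 1w pw1. Against 3 counts over both 0w plates it was at least 44.7-fold higher with both 1w pw1 plates pooled, but it missed the call (edgeR adjusted p 0.0799). Replicate 1 held 118 of the pooled counts and replicate 2 held 29. It was counted in 0 of 179 cells at 0w, where a limit of 3 cells allows a share of cells with a count of up to 1.68%, and in 16 of 168 cells at 1w pw1 (9.52%, exact Clopper-Pearson 95% interval 5.54 to 15%). Slc2a1 (chromosome 4, 119108711 to 119137983), the glucose transporter Glut1, did not follow. Its 0w plates stood at 61.3 and 52.1 CPM and its 1w pw1 plates at 84.7 and 48.6 CPM, on either side of them (log2 0.23, SE 0.47, adjusted p 0.92).

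In oxygen sensing, Egln3, the prolyl hydroxylase that is itself a hypoxia target, stood at 16.8 and 7.93 CPM at 0w and at 121 and 53.5 CPM at 1w pw1 (log2 2.82, SE 0.63, adjusted p 0.0933). Leaving out 1 plate gave 2.10 to 3.42 for Egln3. It was counted in 42 of 179 cells (23.5%, interval 17.5 to 30.4%) and in 90 of 168 cells (53.6%, interval 45.7 to 61.3%). Hif1a was at 229 and 136 CPM against 409 and 294 CPM, apart but short of the threshold (0.95, SE 0.50, adjusted p 0.522). Vegfa, the vascular growth factor, was near the limit of detection on every plate, at 0.467 and 2.8 CPM against 4.25 and 1.58 CPM (0.83, SE 1.17, adjusted p 0.87).

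Higd1a, a mitochondrial hypoxia protein, was at 68.3 and 85.4 CPM at 0w and at 349 and 218 CPM at 1w pw1 (log2 1.88, SE 0.49, adjusted p 0.146). Ndrg1, a stress-response gene, was at 25.1 and 14.1 CPM against 78.3 and 33.2 CPM (1.51, SE 0.64, adjusted p 0.4). Mxi1, an antagonist of Myc, was at 20.4 and 26.1 CPM against 51 and 55.1 CPM (1.19, SE 0.52, adjusted p 0.406). Without 1w pw1 replicate 1 Ndrg1 was at 0.75. The collagen prolyl hydroxylase subunits lay on opposite sides, except that P4ha1 was at 0.15 with the stricter filter on cells. P4ha2 stood at 0.675 and 0.647 CPM against 3.14 and 2.4 CPM (2.05, SE 0.81, adjusted p 0.352), whereas P4ha1 stood at 17.4 and 17.1 CPM against 5.56 and 5.21 CPM (-1.68, SE 0.68, adjusted p 0.36). P4ha1 was counted in 115 of 179 cells at 0w (64.2%) and in 57 of 168 at 1w pw1 (33.9%). The other 12 members outside the enzymes without an unadjusted p below 0.05, Slc2a1, Hif1a and Vegfa included, ran from -0.72 to 1.39 in log2 fold change.

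**Figure D1:**
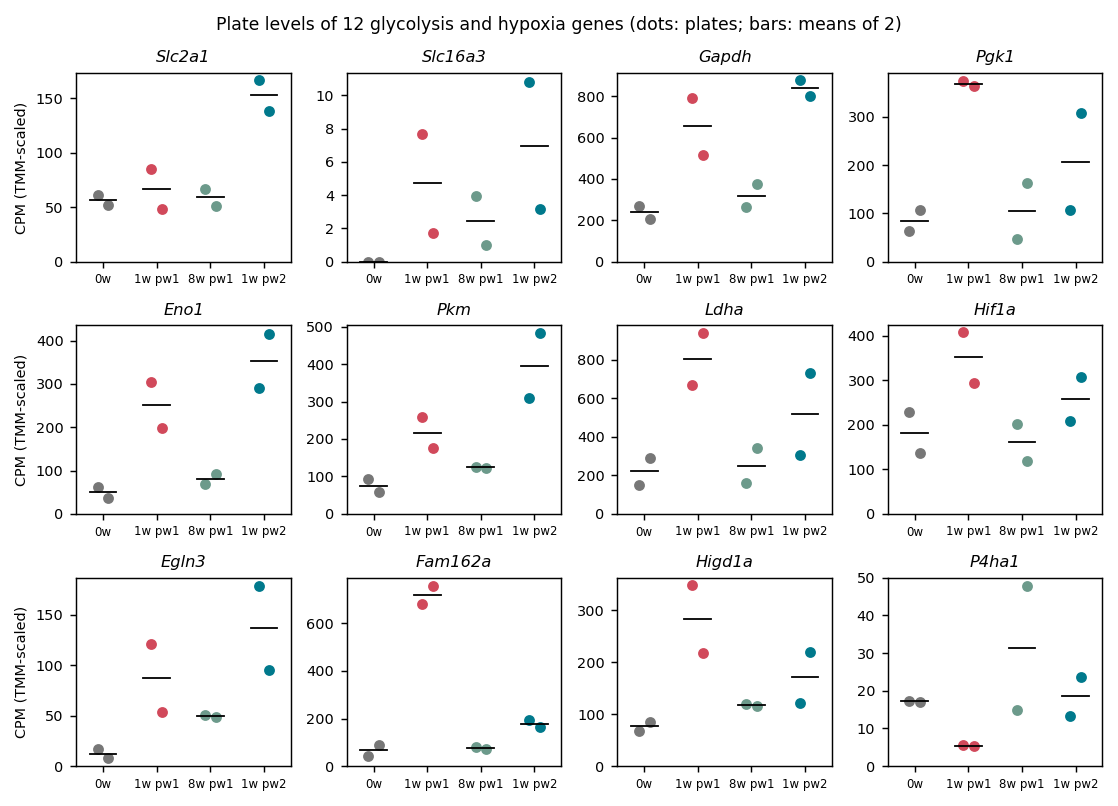
Level of 12 members in CPM on the 8 plates (y axis, linear from 0) by time point (x axis), with a dot for each plate and a bar for the mean of 2. Fam162a stands at 683 and 757 CPM at 1w pw1 and at most at 192 CPM elsewhere, while Slc2a1 is highest at 1w pw2, at 167 and 138 CPM.

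At 8w pw1 the members lay nearer to unwounded skin by their median. The contrast with 0w had 27 members higher and 8 lower, with a median log2 fold change of 0.45 against 0.07 for all genes. For 9 members both plates lay above both 0w plates, as for 17.8% of all genes. edgeR called 0 members and 0% of all genes. DESeq2 called 1, Slc16a3, and 1.12% of all genes. At an unadjusted p below 0.05 there were 3 higher members, against 3.8% of all genes, and 1 lower. Egln3 was at 50.6 and 48.9 CPM, above both 0w plates (log2 2.01, SE 0.61, adjusted p 0.677). P4ha2 was at 4.1 and 3.07 CPM (2.43, SE 0.82, adjusted p 0.69). Slc16a3 was at 3.96 and 0.979 CPM, at least 29.5-fold above 0w with both plates pooled (55 and 15 counts). Those 3, a sensor, a collagen enzyme and a lactate exporter, were the higher members by the unadjusted p. Adm, a vasodilator peptide, had 3 counts in all at 8w pw1 and 70 at 0w, a ratio of 18.5 between 0w and 8w pw1 with an interval of 6.06 to 91.6 from counting error alone (edgeR adjusted p 0.691). This interval and the later ones of Adm take each read as independent. The reads came from 10 cells at 0w and 2 at 8w pw1, without molecular identifiers, so the intervals may be too narrow. Slc2a1 was at 66.5 and 51.5 CPM (0.06, SE 0.47), Hif1a at 202 and 119 CPM (-0.18, SE 0.49) and Vegfa at 1.15 and 0.652 CPM (-0.85, SE 1.19), and the plates of each overlapped those of 0w.

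Set against 1w pw1 directly, 29 members were lower at 8w pw1 and 6 higher, with a median of -0.81 against 0.09 for all genes. edgeR called 0 members, where it called 0.115% of all genes, and 8 members were lower at an unadjusted p below 0.05, against 4.66% of all genes. The only higher member by that measure was P4ha1, and DESeq2 called 4 members and 4.05% of all genes. Fam162a was lowest relative to 1w pw1 after Adm (log2 -3.22, SE 0.50, adjusted p 0.0542). It passed the call without 0w replicate 1 (-3.26, SE 0.50, adjusted p 0.0497) and with the replicate block (-3.21, SE 0.43, adjusted p 0.0216), which called 0.794% of all genes. Adm had 141 counts at 1w pw1 and 3 at 8w pw1, a ratio of 33.9 (counting interval 11.4 to 166, edgeR adjusted p 0.201). Pgk1, at 46.8 and 163 CPM, had a log2 fold change of -1.81 (SE 0.69), Ldha, at 159 and 343 CPM, of -1.68 (SE 0.60), and Eno1, at 69.4 and 90.9 CPM, of -1.65 (SE 0.49). Higd1a stood at 120 and 116 CPM (-1.26, SE 0.48), Hif1a at -1.13 (SE 0.50) and Gapdh, at 265 and 375 CPM, at -1.03 (SE 0.44). Adjusted p-values of these 6 ran from 0.24 for Eno1 to 0.448 for Hif1a. P4ha1, at 15 and 47.9 CPM, was higher than at 1w pw1 (2.54, SE 0.70, adjusted p 0.202). Leaving out 1 plate gave 1.42 to 3.15 for P4ha1, -3.03 to -1.18 for Pgk1 and -2.40 to -1.23 for Ldha, the ends set by the 8w pw1 plates. Slc2a1 (-0.18, SE 0.47) overlapped between the time points and Vegfa (-1.68, SE 1.21) did not.

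The second healing, 1w pw2 against 0w, had 31 members higher and 4 lower, and 22 with both plates above both 0w plates, as had 21.5% of all genes. The median log2 fold change was 1.20, against 0.05 for all genes. At an unadjusted p below 0.05 were 14 higher members, against 6.82% of all genes, and 0 lower. edgeR called 0 members and 0.267% of all genes, and DESeq2 called 6 and 4.97%. With the replicate block edgeR called 4, Egln3 (adjusted p 0.0161), Slc16a3 (0.0275), Eno1 (0.032) and Pkm (0.0435), and 0.693% of all genes. Here the glucose transporter stood with the enzymes. Slc2a1 was at 167 and 138 CPM, above the other 6 plates (log2 1.43, SE 0.48, adjusted p 0.265). With every cell weighted equally its mean was 278 and 66.5 CPM, against 36 to 93.6 CPM on the other 6, so that replicate 2 no longer stood above them, and 1 cell held 51.9% of that plate's Slc2a1 counts. Gpi1, which acts in the upper pathway, was at 140 and 114 CPM against 73.7 and 36.2 CPM at 0w (1.20, SE 0.50, adjusted p 0.359), with 0.76 to 1.77 when 1 plate was left out. Pfkl, a subunit of the enzyme that commits sugar to glycolysis, was at 16.3 and 23.5 CPM against 6.59 and 1.4 CPM (2.31, SE 0.88, adjusted p 0.323), and leaving out 1 plate gave 1.57 to 3.78.

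In the lower pathway at 1w pw2, Eno1 stood at 291 and 416 CPM (log2 2.84, SE 0.51, adjusted p 0.0711) and Pkm at 310 and 482 CPM (2.39, SE 0.49, adjusted p 0.0962). Gapdh was at 878 and 802 CPM (1.82, SE 0.45, adjusted p 0.161), Tpi1, the triose isomerase, at 117 and 166 CPM against 52.3 and 43.4 CPM (1.56, SE 0.48, adjusted p 0.226), and Pgam1 at 128 and 194 CPM (1.47, SE 0.56, adjusted p 0.322). Pgk1, at 107 and 308 CPM, and Ldha, at 306 and 730 CPM, had replicates that differed by more than a factor of 2 and did not pass. Egln3 was at 178 and 95.2 CPM (3.47, SE 0.64, adjusted p 0.078) and was counted in 106 of 177 cells (59.9%, interval 52.3 to 67.2%). P4ha2 was at 7.21 and 7.39 CPM (3.45, SE 0.85, adjusted p 0.159), the highest of the 4 time points. Slc16a3 was at 10.8 and 3.18 CPM, at least 80.2-fold above 0w with both plates pooled (154 and 59 counts). Fam162a (1.42, SE 0.47, adjusted p 0.265), Ndrg1, at 82.6 and 36.6 CPM (1.60, SE 0.65, adjusted p 0.35), and Higd1a, at 122 and 220 CPM (1.16, SE 0.48, adjusted p 0.363), also lay above 0w on both plates, with 0.88 to 2.10 for Ndrg1 and 0.69 to 1.49 for Higd1a over the plates left out. Hif1a, at 208 and 308 CPM (0.50, SE 0.49), and Vegfa, at 2.94 and 0.917 CPM (0.23, SE 1.17), overlapped with 0w.

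**Figure D2:**
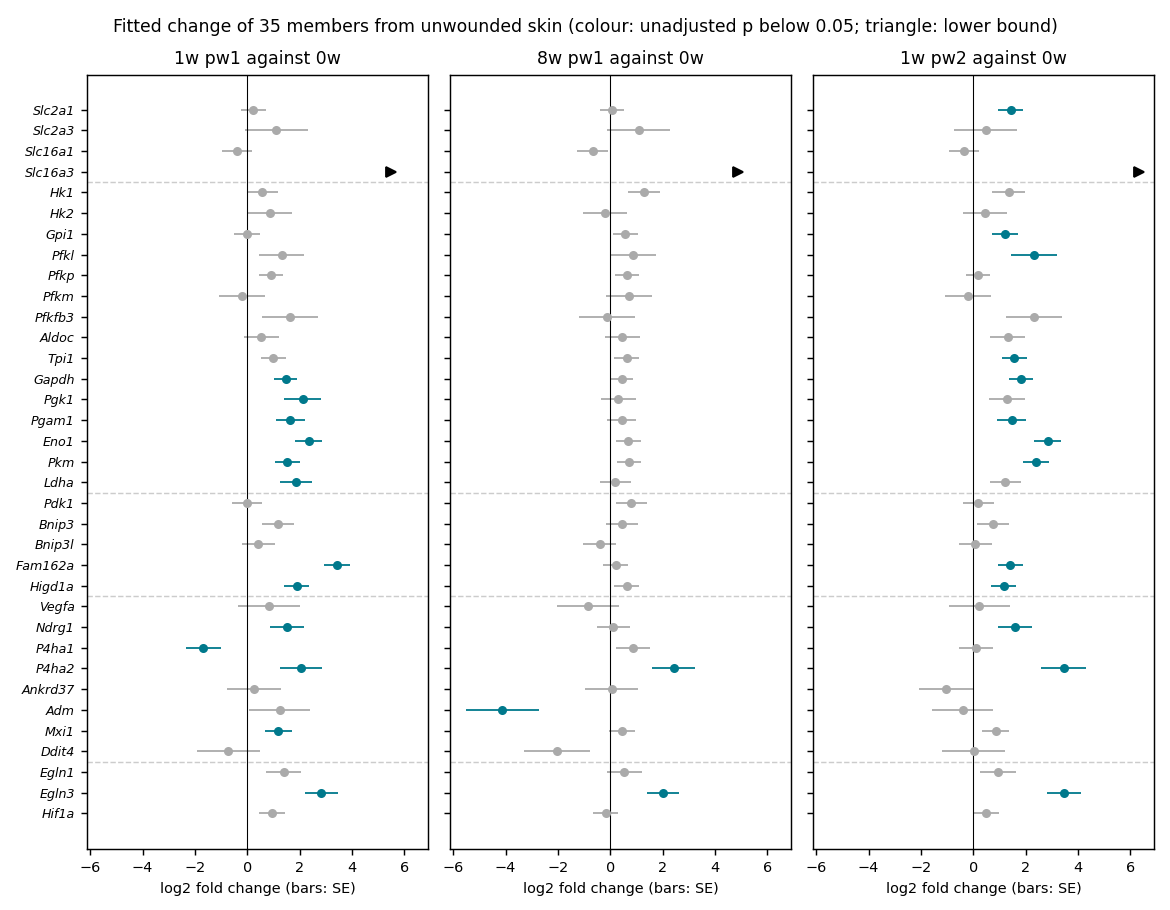
Fitted log2 fold change of the 35 members (x axis, bars the standard error) against 0w at the other 3 time points, grouped by role from transport at the top to oxygen sensing at the bottom. Coloured points have an unadjusted p below 0.05, and triangles give the lower bound of Slc16a3, which had 0 counts at 0w.

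The step from 8w pw1 to 1w pw2 had 29 members higher and 6 lower, with a median of 0.94 against 0.01 for all genes. edgeR called 0 members and 0.00722% of all genes, 9 members were higher at an unadjusted p below 0.05, against 3.64% of all genes, and DESeq2 called 1, Eno1, and 2.03% of all genes. Eno1 had the lowest p of these (log2 2.14, SE 0.50, adjusted p 0.296). For Pkm, at 126 and 122 CPM at 8w pw1, the log2 fold change was 1.67 (SE 0.48, adjusted p 0.416), for Gapdh 1.39 (SE 0.45, adjusted p 0.497) and for Slc2a1 1.37 (SE 0.48, adjusted p 0.518). Egln3 had 1.46 (SE 0.60), Ndrg1, at 25.6 and 16.6 CPM at 8w pw1, 1.50 (SE 0.64) and Fam162a 1.21 (SE 0.47). Pfkfb3, which makes the activator of phosphofructokinase, went from 0.792 and 0.522 CPM to 5.53 and 1.73 CPM (2.45, SE 1.09, adjusted p 0.625). Leaving out 1 plate gave 1.40 to 3.12 for Pfkfb3, 0.81 to 2.03 for Ndrg1 and 0.95 to 1.90 for Egln3. Adm went from 3 counts to 45, a ratio of 13.4 (counting interval 4.3 to 67.4). Hif1a (0.68, SE 0.49) and Vegfa (1.09, SE 1.20) did not pass.

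Between the healings, 1w pw2 against 1w pw1, the members were split on the whole plates. There were 19 higher and 16 lower, with a median of 0.03 against 0.09 for all genes. edgeR called 0 members and 0% of all genes, 3 members were higher at an unadjusted p below 0.05, against 3.38% of all genes, and DESeq2 called 1, Fam162a, and 0.296% of all genes. Single members stood on opposite sides. Slc2a1 was higher after the second wound (log2 1.19, SE 0.48, adjusted p 0.781), as were Gpi1 (1.22, SE 0.50, adjusted p 0.781) and P4ha1 (1.78, SE 0.68, adjusted p 0.781). Fam162a was lower (-2.01, SE 0.48, adjusted p 0.781). Hif1a (-0.45, SE 0.49) and Vegfa (-0.60, SE 1.17) overlapped between the healings.

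The difference between the healings, which sets the step from 8w pw1 to 1w pw2 against the step from 0w to 1w pw1, called 0 members and 0% of all genes in edgeR, and DESeq2 called 0 members and 0.556%. At an unadjusted p below 0.05 there were 2 lower members, against 2.94% of all genes, and 0 higher. Fam162a had a smaller step in the second healing (log2 -2.22, SE 0.66, adjusted p 0.873). Slc16a3 was the other, and its fitted value is not given because it rests on a group with 0 counts. The steps of Slc2a1 (1.14, SE 0.67, adjusted p 0.964), Hif1a (-0.26, SE 0.70) and Vegfa (0.26, SE 1.65) were not told apart. The median over the members was -0.26 and over all genes 0.05, and without 1w pw1 replicate 1 the former was 0.03.

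To see which cells carried these counts, the 696 cells were clustered without the member genes into 11 clusters. Cluster 5, with 65 cells, was led by S100a9, Krt6b, S100a8 and Krt16 and is called wound-activated keratinocyte-like. Cluster 6 (61 cells) was sebaceous gland-like and cluster 3 (79 cells) differentiated keratinocyte-like. The others keep their numbers, among them cluster 4 (74 cells, led by Klk10, Slc46a2 and Cdsn) and cluster 10 (24 cells, led by the cell cycle genes Cenpf, Ccnb1 and Cenpe). Over all plates pooled, cluster 5 had the highest summed level of 24 of the 35 members. The pool mixes time points, since 1 of the 65 cells of cluster 5 came from 0w while clusters 2, 6 and 8 held mostly 0w and 8w pw1 cells. Within a plate, among clusters with at least 5 cells, cluster 5 was highest for 28 and 27 members at 1w pw1, 15 and 12 at 8w pw1 and 30 and 23 at 1w pw2. Slc2a1 was at 366 CPM there, at 170 CPM in cluster 10 and at most at 86.2 CPM in any other cluster, and it was counted in 90.8% of the cells of cluster 5, in 83.3% of those of cluster 10, where the median cell was at 91.5 CPM against 87.5 CPM in cluster 5, and in 9.52 to 58.8% of the others. Fam162a was at 1288 CPM in cluster 5, at 735 CPM in cluster 10, at 277 CPM in cluster 3 and at 8.65 CPM in cluster 4. Its median cell was at 629 CPM in cluster 5, and at 192 and 193 CPM in clusters 10 and 3. Slc16a3 was at 21.1 CPM in cluster 5 and had 0 counts in 6 of the clusters. Not every member followed this order: Slc16a1, the other monocarboxylate transporter, was highest in the sebaceous gland-like cluster at 209 CPM (86.3 CPM in cluster 5), and Mxi1 was highest in cluster 7 at 69.5 CPM. P4ha1 was highest in cluster 11, at 132 CPM, whose 21 cells held a median of only 17247 counts.

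**Figure D3:**
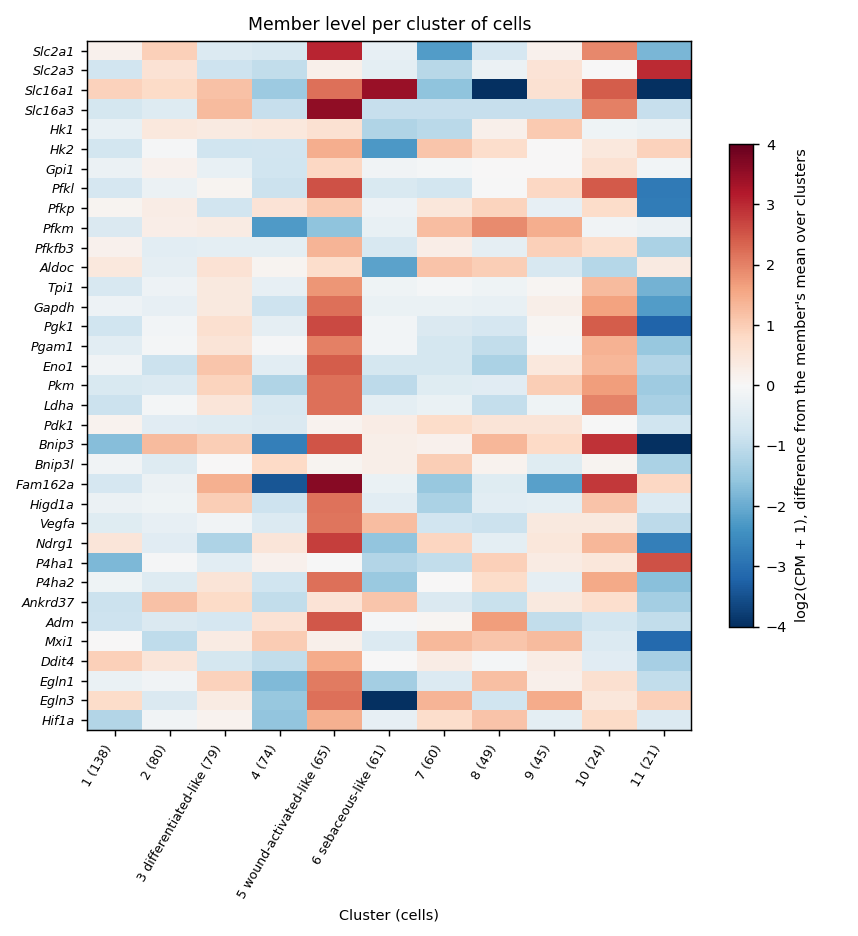
Level of each member (rows) in the summed cells of each of 11 clusters (columns, cells in parentheses), as log2(CPM + 1) minus the mean of that member over clusters, with colours ending at 4 and -4. Cluster 5 is highest for 24 of 35 members, with Slc2a1 at 366 CPM.

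The number of wound-activated-like cells varied with the time point. Unwounded plates held 1 and 0 of them, 1w pw1 plates 23 and 12, 8w pw1 plates 5 and 8 and 1w pw2 plates 8 and 8. At 1w pw1 they held 37.1 and 13% of all counts and a median of 73.5 and 40.4% of the counts of a member. At 1w pw2 they held 8.96 and 14% of all counts and a median of 40.1 and 30.9% of those of a member. They held 91.7 and 36.3% of the Slc2a1 counts and 86 and 52.5% of the Fam162a counts on the 1w pw1 plates, and 71 and 69.8% and 48.6 and 62.9% on the 1w pw2 plates. Members above the share of all counts numbered 29 and 31 of 35 on the 1w pw1 plates and 31 and 28 on the 1w pw2 plates. How many of all genes lie above such a share was not counted. All counts include mitochondrial ones, whose median share was 14.4% in cluster 5 and 12.6 to 30.6% in the other clusters. At 8w pw1 the wound-activated-like cells held 3.36 and 6.91% of all counts and a median of 5 and 10.7% of those of a member. There 20 of 34 and 21 of 35 members with counts lay above the share of all counts. The summed markers of such cells moved likewise, 59.3 and 55.2 CPM on the unwounded plates, 22605 and 9401 on the 1w pw1 plates, 795 and 383 on those of 8w pw1 and 2755 and 4157 on those of 1w pw2. The markers of differentiated keratinocytes summed to 4160 and 4058, 34703 and 34902, 8220 and 5813, and 20382 and 27980 CPM at the 4 time points, and those of sebaceous gland to 1088 and 7962, 507 and 506, 1122 and 3954, and 1022 and 674 CPM. In the same order, upper hair follicle markers summed to 9406 and 13759, 19326 and 21419, 23145 and 28269, and 36248 and 15061 CPM, and tail scale markers to 21.4 and 6.17, 478 and 316, 265 and 91.9, and 491 and 2005 CPM. Both lists were thus higher on every plate after wounding than on the 0w plates, as were the basal markers (2403 and 1604 CPM at 0w, 3380 to 4626 CPM after). Bulge markers went the other way, 345 and 260 CPM on the unwounded plates and 111 to 241 CPM on the others. Without the sebaceous-like cluster the median of the members at 1w pw1 against 0w was 1.20 and Fam162a had 3.58 (SE 0.50, adjusted p 0.0178). The part of the differentiated, upper follicle, tail scale, basal and bulge cells in the results was not tested.

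With the wound-activated-like cells left out, an alternative chosen after seeing the data, the median of the members at 1w pw1 against 0w was 0.34 (all genes -0.03), with 24 higher and 11 lower, and 31 of 35 had a smaller value than with them. edgeR then called 0 members there and 0.403% of all genes. At an unadjusted p below 0.05, 4 members were higher (4.8% of all genes) and 2 lower (5.87%). Fam162a stood at 44.1 and 89.5 CPM against 147 and 410 CPM (log2 2.06, SE 0.62, adjusted p 0.23). The contrast of 8w pw1 with 1w pw1 then had a median of 0.03 in place of -0.81, with 18 higher and 17 lower. At 1w pw2 against 0w more remained, with a median of 0.67 (all genes 0.04), 26 higher, 9 lower and 7 higher at an unadjusted p below 0.05 (5.97% of all genes). Egln3 kept 3.15 (SE 0.67, adjusted p 0.133), Eno1 2.39 (SE 0.51, adjusted p 0.133) and Pkm 1.90 (SE 0.51, adjusted p 0.206). Slc2a1 did not keep its difference: without these cells it stood at 59.7 and 52.1 CPM at 0w and at 54.4 and 48.2 CPM at 1w pw2 (-0.12, SE 0.66, adjusted p 0.967). Between the healings 22 members were then higher and 13 lower at 1w pw2, with a median of 0.34 (all genes 0.09) and 6 higher at an unadjusted p below 0.05 (3.44% of all genes).

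**Figure D4:**
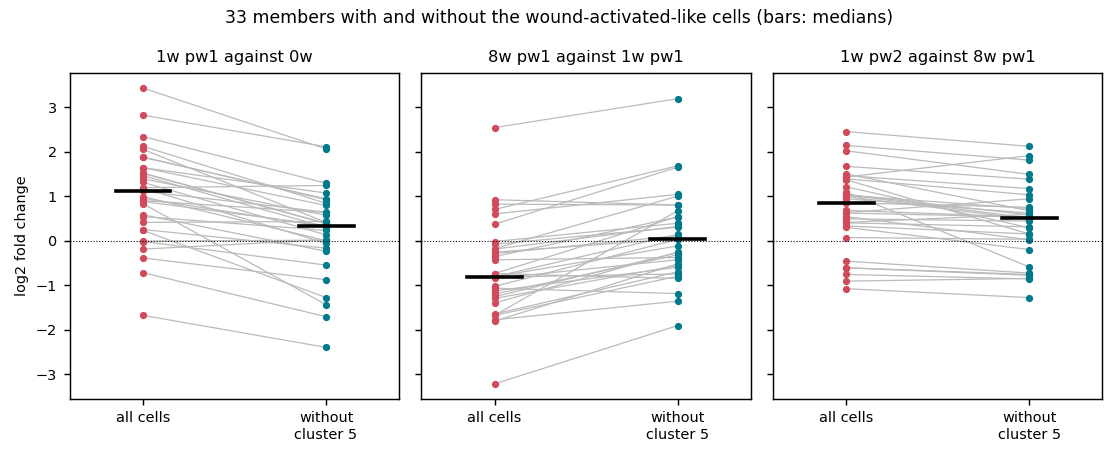
Fitted log2 fold change (y axis) of 33 members with all cells and without the cells of cluster 5, for 3 contrasts, with a line for each member and a bar for their median. Slc16a3 and Adm, which rest on groups with 0 to 3 counts, are left out, and over all 35 members the median goes from 1.18 to 0.34 at 1w pw1 against 0w and from -0.81 to 0.03 at 8w pw1 against 1w pw1.

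Inside the wound-activated-like cluster the time points after wounding could be set side by side on the cells counted above. These are levels with no test, over few cells. Of 31 members measured, 23 were higher at 1w pw2 than at 1w pw1 and 16 had both plates above both, where 27.5% of all genes did, with a median log2 difference of 0.83 against 0.38 for all genes. Slc2a1 stood at 169 and 117 CPM in the 1w pw1 cells, at 102 and 392 CPM in those of 8w pw1 and at 1459 and 697 CPM in those of 1w pw2. Pkm was at 429 and 566, 479 and 429, and 1700 and 1157 CPM at the same 3 time points, and Eno1 at 495 and 598, 218 and 213, and 1331 and 1042 CPM. For these 3, both plates of the second healing lay above the other 4. A single cell held 74.3% of the cluster's Slc2a1 counts on 1w pw2 replicate 2 and 35.1% on replicate 1. Without the top cell of each plate Slc2a1 stood at 123 and 78.3, 64.3 and 92.5, and 1361 and 284 CPM, in the same order. Egln3 behaved alike, at 173 and 124, 227 and 47.3, and 465 and 330 CPM. A single cell held 69.9% of its counts on 1w pw2 replicate 2. Without the top cell of each plate Egln3 stood at 133 and 58.5, 60.2 and 72, and 386 and 158 CPM. Fam162a differed, at 1281 and 2634, 150 and 150, and 1151 and 749 CPM. Pgk1 was at 712 and 1063, 53.2 and 170, and 625 and 774 CPM. Ldha was at 1118 and 2720, 622 and 437, and 1569 and 1965 CPM, so its healings overlapped and 8w pw1 lay below both. Hif1a, at 596 and 534, 426 and 381, and 696 and 600 CPM, was highest at 1w pw2 and lowest at 8w pw1 with no overlap, over a narrower range. Without the top cell of each plate the Hif1a values were 499 and 398, 184 and 257, and 317 and 466 CPM, and the healings overlapped. Against 8w pw1, 26 of 29 members measured were higher at 1w pw2, 18 with plates apart (23.3% of all genes), with a median of 1.75 against 0.20. At 8w pw1 against 1w pw1, 9 of 27 were higher, 13 had both plates below both (22.9% of all genes), and the median was -0.48 against 0.27.

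**Figure D5:**
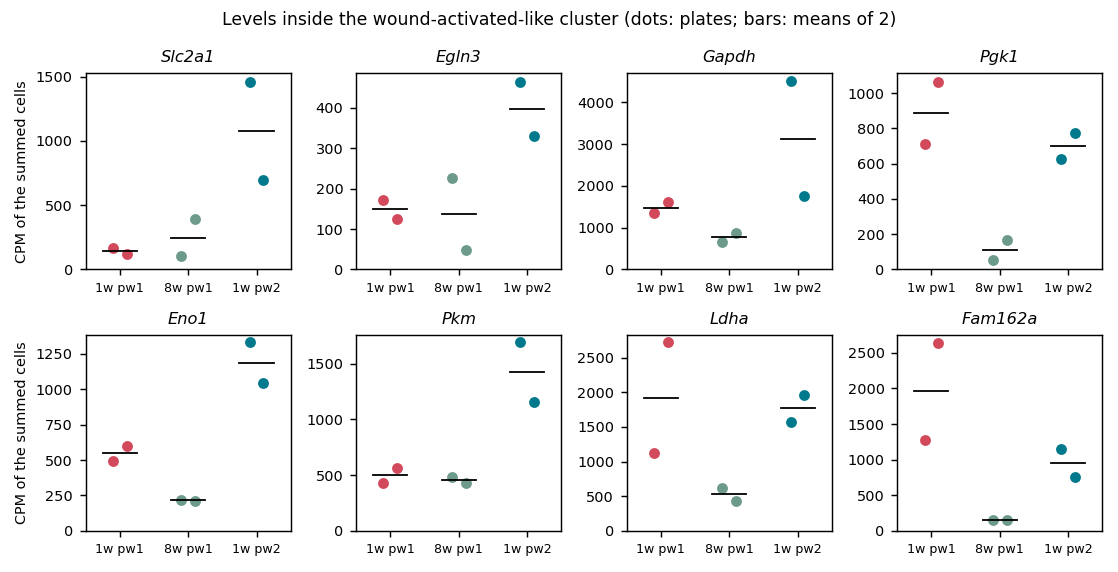
Level in CPM of 8 members in the summed wound-activated-like cells of each plate (y axis, linear from 0) at the 3 time points after wounding, with a dot for each plate and a bar for the mean of 2. Slc2a1 reaches 1459 and 697 CPM at 1w pw2 against 169 and 117 CPM at 1w pw1, with 1 cell holding 74.3% of the counts behind 697 CPM, while Fam162a is highest at 1w pw1.

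Cluster 4 was the only one with at least 5 cells on all 8 plates. At 1w pw1 against 0w, 10 of 17 members measured were higher, with a median log2 difference of 0.04 against -0.03 for all genes. At 1w pw2 against 0w, 15 of 19 were higher, 10 with plates apart (19.4% of all genes), and the median was 0.90 against 0.08. Healed skin lay between, with 12 of 19 higher at 8w pw1 than at 0w and a median of 0.56 against 0.09. Set against 1w pw1, 16 of 19 were higher at 1w pw2 (median 1.01, all genes 0.11) and 11 of 19 at 8w pw1 (0.22, all genes 0.12). Eno1 stood there at 79.3 and 39.4 CPM at 0w, 40.5 and 82.3 CPM at 1w pw1 and 146 and 221 CPM at 1w pw2, and Pkm at 73.3 and 32.6, 41.5 and 39.6, and 122 and 133 CPM. For Eno1 and Pkm the plates of the second healing were thus above those of 0w and 1w pw1. Slc2a1 overlapped, at 6.67 and 26.3 CPM at 0w and 7.36 and 91.3 CPM at 1w pw2. Cluster 1 allowed both healings to be set against 0w. There 12 of 20 members were higher at 1w pw1, near the 57.5% of all genes (median 0.41, all genes 0.20). At 1w pw2, 15 of 21 were higher, against 49.2% of all genes (0.47, all genes -0.03). Members with both plates above both 0w plates numbered 6 at 1w pw1 (23.4% of all genes) and 2 at 1w pw2 (14.8%). The 1w pw2 plates held 43 and 5 cells of this cluster. Clusters 2, 6 and 8 allowed only 8w pw1 against 0w, with 12 of 23, 9 of 19 and 15 of 25 members higher and medians of 0.00, -0.19 and 0.07 against -0.11, -0.32 and -0.40 for all genes. Without 0w cells, cluster 3 had 16 of 23 higher at 8w pw1 than at 1w pw1 (median 0.38, all genes 0.11), opposite in sign to the whole plates and to cluster 5, while cluster 7 had 7 of 22 (-0.74, all genes -0.43). From 8w pw1 to 1w pw2 the medians were 0.29 in cluster 3 (all genes 0.32) and 1.36 in cluster 7 (all genes 0.44), and from 1w pw1 to 1w pw2 they were 0.61 (0.39) and 0.00 (0.02).

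The members were carried unevenly by single cells. The cell with the most Slc2a1 counts held 14 to 51.9% of the plate's total, and on 0w replicate 2 and 1w pw2 replicate 2 this 1 cell held over 50%. For Gapdh the top cell held 5.31 to 19.5%. Slc2a1 was counted in 49.2% of unwounded cells (interval 41.6 to 56.7%), 48.8% of 1w pw1 cells (41 to 56.6%), 42.4% of 8w pw1 cells (35 to 50.2%) and 45.2% of 1w pw2 cells (37.7 to 52.8%), so its higher sum at 1w pw2 did not go with more cells counted. With every cell thinned to 30000 counts, which left out 81 of 696 cells, it was counted in 24.6 to 42.2% of the cells of a plate. Fam162a was counted in 64.8, 70.8, 59.3 and 64.4% of the cells in the same order, with intervals that overlap. After thinning, Fam162a was counted in 65.2 and 70% on the 1w pw1 plates and in 45 to 59.2% on the other 6. Egln3, in contrast, was counted in more cells after either wound than at 0w, as given above, and in 36.6% at 8w pw1 (interval 29.4 to 44.3%). After thinning, Egln3 stood at 18.9 and 11.5% of the cells on the 0w plates and at 26.5 to 58.6% on the other 6, still apart at an equal total count per cell, mitochondrial counts included. For P4ha1 the thinned shares were 27.2 and 40.1% at 0w and 10.8 and 10.9% at 1w pw1. These intervals describe counting error over cells and nothing more: they pool the cells of 2 plates, whose shares differed, as for P4ha1 at 1w pw2 (40.7 and 70.3%).

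Neighbouring genes of the pathways, which are no members, are given as lists beside the medians of all genes, -0.04 for 1w pw1 and 0.05 for 1w pw2 relative to 0w. Their difference from the members was not tested. Of 15 further glycolysis genes tested, 1 was higher at 1w pw1 than at 0w and 14 were lower, with a median log2 fold change of -0.59. By edgeR 0 were called, where 0.527% of all genes were, and 3 had an unadjusted p below 0.05, all lower, as were 832 of all 13853 genes at that p: Ldhb, the other lactate dehydrogenase subunit (-1.85, SE 0.59, adjusted p 0.23), Slc16a7, a monocarboxylate transporter of high affinity (-3.81, SE 1.14, adjusted p 0.202), and Adpgk, an ADP-dependent glucokinase (-1.86, SE 0.73, adjusted p 0.35). Ldhb stood at 32.1 and 67.4 CPM at 0w and at 13.9 and 13.7 CPM at 1w pw1, opposite to Ldha. Eno1b, the near-identical copy of Eno1, stood at 8.2 and 14 CPM at 0w and 7.06 and 9.55 CPM at 1w pw1, and at 45 and 56.4 CPM at 8w pw1 (2.19, SE 0.56, adjusted p 0.616) and 43.8 and 78.1 CPM at 1w pw2 (2.46, SE 0.57, adjusted p 0.144). Of 36 further hypoxia genes, 19 were higher and 17 lower, with a median of 0.06, and 1 was called. That was Edn1, the vasoconstrictor endothelin, which rose from 0.208 and 0.432 CPM to 12.7 and 13.2 CPM (5.32, SE 0.94, adjusted p 0.043). Of 24 genes of pyruvate entry and the citric acid cycle, 8 were higher and 16 lower, with a median of -0.32 and 0 called, and 1 lower at an unadjusted p below 0.05. Of 7 genes of the pentose phosphate pathway 3 were higher, among them G6pdx, the entry enzyme, at 6.7 and 14.5 CPM against 28 and 35.2 CPM (1.57, SE 0.59, adjusted p 0.324). Of 4 genes of gluconeogenesis tested 1 was higher. At 1w pw2 against 0w, the further glycolysis genes had 5 higher and 10 lower (median -0.63), the further hypoxia genes 19 and 17 (0.31), the citric acid cycle 11 and 13 (-0.08), the pentose phosphate pathway 6 and 1 (0.66) and gluconeogenesis 3 and 1 (0.26), with 0 called in any of the 5.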

How the data were processed

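Single tdTomato-positive cells were sequenced by Smart-seq2. Per the labels and the study's methods, the authors quantified transcripts with Salmon 0.13.1 on GRCm38 (mm10), summarised them to genes and filtered cells in R 4.0.3 with Seurat. The table deposited by the authors holds estimated counts, of which 96.6% are whole numbers. It has 15652 genes and 696 cells, and 0 columns lay outside the samples. All 696 cells pass the study's filter applied again (1000 genes or more, mitochondrial counts no higher than 50%).

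The members, lists and alternatives were chosen with earlier results of these data known. Estimated counts were summed per plate and rounded to whole numbers, since cells of a plate are not replicates. Groups came from the sample labels, with 2 plates each. Genes were filtered with filterByExpr, scaled by the trimmed mean of M values and fitted over all 8 plates by time point with edgeR's quasi-likelihood test (edgeR 4.0.16, R 4.3.3). P-values were adjusted by Benjamini-Hochberg over all 13853 genes in each of 7 contrasts, and a call needed an adjusted p below 0.05 and a fold above 2. The design left 4 residual degrees of freedom, with a biological coefficient of variation of 0.61. An exact permutation test of 2 against 2 plates cannot go below a p of 0.333 and was not used. Plates of the same replicate number deviated together (r 0.19 to 0.28 over all 6 pairs of time points), so the numbers were taken to pair plates in an alternative fit with a replicate block. The main fit had no such term, so its errors, p-values and counts at an unadjusted p are unpaired. The pairing comes from the data, as the labels name no shared batch, and blocked values are given where they change a call. The fit was tested on simulated data.

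Members with an unadjusted p below 0.05 in a contrast are given there with fold change and error, Slc2a1, Hif1a and Vegfa always, and the others by range and count. Genes named outside this rule were chosen after their values were seen. Alternatives were DESeq2 1.42.0, limma 3.58.1 on the mean over cells of log2(CPM + 1), RLE size factors, no filter, a replicate block, only the plates compared, every cell scaled to 132595 counts, a stricter filter on cells (2000 genes or more, mitochondrial counts up to 20%, 313 cells kept, only 9 of them on 0w replicate 2), leaving out each plate and, added after seeing the data, leaving out mitochondrial genes, each member's top cell or a cluster.

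Cells were clustered without members and mitochondrial genes (2000 variable genes, 20 principal components, 15 neighbours, Leiden resolution 1, leidenalg 0.10.2, scikit-learn 1.9.0, Python 3.11.15). Clusters were named from marker lists only, so they may differ from the study's, and doublets were not called. Levels inside a cluster needed at least 5 cells on each plate compared and a mean of 10 CPM, with 2 as prior count. Gene positions are GENCODE's on GRCm38 and promoters RefSeq's on GRCm38.p6. Shares of cells have exact Clopper-Pearson 95% intervals, and a share of 0 is limited by 3 cells.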

Additional observations from a re-analysis of the deposited data

How the results depend on the processing

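Members called changed with the test. At 1w pw1 against 0w edgeR called 1 (0.527% of all genes), and DESeq2 (5.22%) and the fit with a replicate block (1.7%) 5 each. Limma by the adjusted p alone called 1 (5.51%), Egln3 in place of Fam162a. The stricter filter on cells (0.193%) and the fit without the wound-activated-like cluster (0.403%) called 0 each. The call of Fam162a was lost when any of the 4 plates compared was left out, as given above. At 1w pw2 against 0w edgeR called 0 (0.267% of all genes), DESeq2 6 (4.97%), the replicate block 4 (0.693%) and limma, judged by the adjusted p alone, 2 (3.54%). At 8w pw1 against 1w pw1 edgeR called 0 (0.115% of all genes), DESeq2 4 (4.05%) and limma by the adjusted p alone 2 (4.51%). With a fold above 2 as well, limma called 1, P4ha1 (3.65%). No filter on low counts (0.147%), the replicate block (0.794%) and the fit without the sebaceous-like cluster (0.119%) called 1 each. Of the plates left out, only 0w replicate 1 brought a call, Fam162a, as given above. DESeq2 called 1 in each of the contrasts of 8w pw1 with 0w (1.12% of all genes), of the 1w healings with each other (0.296%), and of 1w pw2 with 8w pw1 (2.03%). The replicate block changed no other call of a member.

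Median log2 fold changes of the members, in the order of the 3 later time points against unwounded skin, then 8w pw1 against 1w pw1, then 1w pw2 against 8w pw1, then the difference of the healings, were 0.41, 0.11, 0.39, -0.32, 0.33 and -0.14 with limma and 1.59, 0.63, 1.50, -1.35, 0.76 and -0.73 with the stricter filter. With every cell scaled equally those that moved were 0.85, 0.59, -0.49, 0.52 and -0.51, and 0.20 at 1w pw2 against 1w pw1, where the stricter filter gave -0.18. Without the wound-activated-like cluster they were 0.34 for 1w pw1 and 0.67 for 1w pw2 relative to unwounded skin, and for 1w pw2 0.34 relative to 1w pw1 and 0.51 relative to 8w pw1. The sign then turned for 8w pw1 against 1w pw1 (0.03) and for the difference of the healings (0.26). Without the top cell of each member the median at 8w pw1 against 1w pw1 was -0.93. Leaving out 1 plate gave 0.99 to 1.21, 0.34 to 0.48, 0.84 to 1.23, -1.09 to -0.53, 0.71 to 0.96 and -0.52 to 0.03 in the order above and -0.16 to 0.27 at 1w pw2 against 1w pw1. Of the members with an unadjusted p below 0.05, the values that turned were P4ha1 at 1w pw1 against 0w (0.15, stricter filter), Slc2a1 at 1w pw2 against 0w (-0.12) and Gapdh at 8w pw1 against 1w pw1 (0.03), both without the wound-activated-like cluster. Where not set by fewer cells or genes, the cause was not tested. Of the values of named members under alternatives, 1440 kept direction and side of the threshold, 34 passed it anew and 7 fell short. A further 44 changed sign without having passed, all in Slc2a1, Hif1a or Vegfa, such as Slc2a1 at 1w pw1 (18 of 21 alternatives with the same sign, lowest -1.28) and at 8w pw1 (15 of 21, lowest -1.66) against 0w. With only the plates compared, the difference between the healings has no value. With 2 plates a group and 1 to 6 cells holding 50% of the Slc2a1 counts of a plate, depth and cell number limit the values of single members.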
